A study of Mus musculus with 6 samples.

Results

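The 10 genes described here are used as markers of stem and progenitor cells of the intestinal crypt: Prom1, Cd44, Cd24a, Tnfrsf19, Olfm4, Smoc2, Sox4, Bmi1, Hopx and Msi1. They were chosen by name, each was found once among the 52249 genes of the count table, and 7 of the 10 passed the filter on low counts. The libraries came from intestinal organoids of Apc-knockout mice, epithelial cultures grown from intestinal cells, and were sequenced near the polyadenylated 3′ end of each transcript. Apc, a tumour suppressor and brake on WNT signalling, was knocked out in all 6 libraries. The control group held 3 libraries with the Apc knockout alone, and the second group held 3 Apc-knockout libraries labelled as overexpressing IGF2BP3, an RNA-binding protein. The strain, age and number of mice, the region of the intestine, the time of harvest, the way IGF2BP3 was introduced and whether a group was 1 clone are not given in the sources used here. Libraries with intact Apc were not analysed here. The study's title names IGF2BP3, growth heterogeneity of colorectal adenoma cells and MYC expression, and the question taken here is how the crypt markers differ between the groups.

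In the intestinal crypt, WNT signals maintain stem cells at the base, whose daughters divide as transit-amplifying progenitors before they differentiate. Loss of Apc stabilises beta-catenin, so that crypt genes driven by TCF/LEF factors are held on without external WNT. The 10 markers are not all surface proteins, although they are often grouped as such. Prom1 (prominin, CD133), Cd44, Cd24a and Tnfrsf19 (TROY) encode proteins of the cell surface, Olfm4 and Smoc2 encode secreted proteins, Sox4, Bmi1 and Hopx encode nuclear proteins, and Msi1 encodes an RNA-binding protein.

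Promoter sequence is shown for Prom1, the member with the highest mean in the OE-labelled libraries and 1 of the 2 that rose, and for Bmi1, a member with a negative estimate that did not pass. RefSeq windows on GRCm38.p6 held 250 bases before an annotated start and 50 bases from that start on. They were matched for 7 of the 10 members by symbol (10 windows in all), and none was matched for Cd24a, Smoc2 and Msi1. CTTTGA, the core of the TCF/LEF motif, and CACGTG, the E-box bound by MYC with MAX, were searched on both strands. These motifs do not overlap each other in the windows, and each match stands in capitals.
Prom1, first window, minus strand, chr5:44101687-44101986: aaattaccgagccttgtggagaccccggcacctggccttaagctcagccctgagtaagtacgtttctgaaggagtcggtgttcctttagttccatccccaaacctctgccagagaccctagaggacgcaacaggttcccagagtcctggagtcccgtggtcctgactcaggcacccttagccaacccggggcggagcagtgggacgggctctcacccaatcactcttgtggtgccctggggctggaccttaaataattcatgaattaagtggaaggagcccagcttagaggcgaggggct
Prom1, second window, minus strand, chr5:44094719-44095018: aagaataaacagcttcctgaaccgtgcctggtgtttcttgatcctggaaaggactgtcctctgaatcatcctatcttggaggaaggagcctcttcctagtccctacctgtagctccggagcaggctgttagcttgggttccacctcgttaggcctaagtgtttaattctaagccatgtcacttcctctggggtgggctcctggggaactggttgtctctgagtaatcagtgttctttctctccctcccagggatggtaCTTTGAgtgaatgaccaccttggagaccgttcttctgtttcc
Bmi1, plus strand, chr2:18676768-18677067: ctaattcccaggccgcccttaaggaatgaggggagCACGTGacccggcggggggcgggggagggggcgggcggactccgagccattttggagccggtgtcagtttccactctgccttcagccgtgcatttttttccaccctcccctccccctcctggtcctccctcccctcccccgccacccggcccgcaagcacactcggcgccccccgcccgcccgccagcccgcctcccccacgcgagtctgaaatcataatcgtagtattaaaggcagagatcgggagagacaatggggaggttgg
The first Prom1 window holds neither motif. The second holds 1 CTTTGA whose first base is base 9, with the start itself counted as base 1. The Bmi1 window holds 1 CACGTG whose first base lies 215 bases before the start. CTTTGA was present in 2 of the 10 member windows (Prom1 and Tnfrsf19) and in 16% of all 32851 windows of this length. CACGTG was present in 3 (Bmi1, Hopx and Tnfrsf19) and in 7.15% of all windows. A match is a description of these letters and not evidence of binding.

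Control libraries held from 2180087 to 2228062 counts and OE-labelled libraries (OE for overexpression) from 2310216 to 2519886, so that 3 counts, used as the detection floor, stood for 1.18 to 1.41 CPM (counts scaled to library size by TMM). Floors, and the interval given for Tnfrsf19, cover counting error only, while the intervals of fitted fold changes include the spread between libraries. Igf2bp3 had 1, 0 and 0 counts in control, against 1, 0 and 0 in OE-labelled libraries, in replicate order. A 3′ tag of the mouse gene checks the label only if the introduced transcript carries that 3′ end, which is not stated, so the second group is called OE-labelled. Apc was counted in both groups, with means of 80.4 ± 4.30 (control) and 62.0 ± 2.37 CPM (OE-labelled, SD, n = 3). The groups did not overlap, and Apc was lower in OE-labelled libraries (log2 fold change -0.37, SE 0.12, edgeR adjusted p = 0.0323). Its 3′ tags do not test the deletion. The variance between pairs of control libraries was 1.2 to 1.38 times that of counting noise. Between pairs of OE-labelled libraries it was 4.7 to 9.03 times that of counting noise. The library names put each group in a library series of its own, so series and group cannot be told apart in any result. Nothing says that the libraries came from separate cultures or animals, so p-values measure only the spread between these samples. Defining markers of mesenchyme, immune cells and endothelium were at or near 0: the summed CPM of each list was at most 2.11 in any library.

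Among the 7 tested members, 2 rose in OE-labelled libraries, Cd24a and Prom1, and 0 fell, at an edgeR adjusted p below 0.05 over all 10687 genes tested. Across all tested genes, 29.2% passed in either direction and 16.5% were higher, and among the 795 genes with a mean of at least 200 CPM 48.7% passed and 32.6% were higher. Of the 4 members above that level, 2 passed. The members' share was therefore close to that of other genes, and the count is not a result about crypt markers as a class. For 3 of the 7 tested members (Cd24a, Prom1 and Cd44), all OE-labelled libraries lay above all control libraries, and 0 members showed the opposite. Such separation occurred in 45.7% of all tested genes, 25.3% upward and 20.5% downward, and upward in 39.5% of the abundant genes. The median log2 fold change of the 7 was 0.43, beside 0.04 for all tested genes, and it is the value of Olfm4, a gene of few counts. Without OE-labelled replicate 3 the median was 0.05, beside 0.02 for all genes then tested, so it rested on that library. It was 0.27 with limma-voom. The members that passed the filter are not all members, and Tnfrsf19, Smoc2 and Msi1 had too few counts to be tested.

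**Figure D1:**
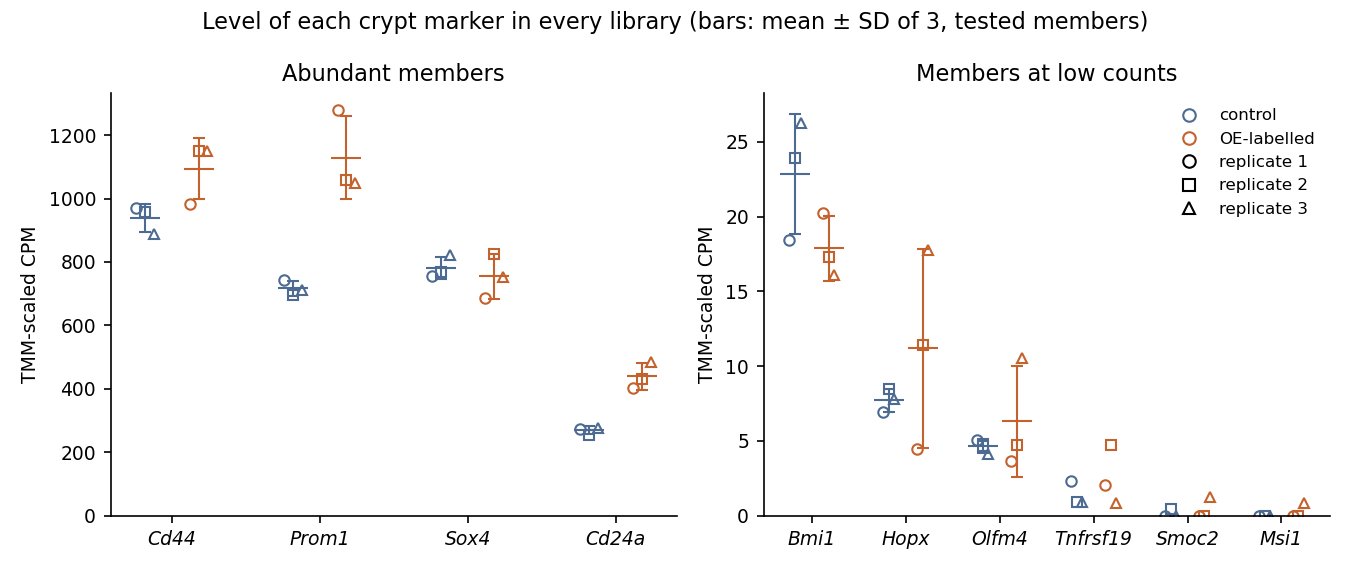
Level of the 10 crypt markers in each library, as TMM-scaled CPM on linear axes that start at 0 (blue, control; orange, OE-labelled; symbols, replicates; bars, mean ± SD of 3 libraries for tested members). Prom1 and Cd24a were higher in each OE-labelled library than in any control library, Sox4 overlapped, and the 6 members on the right had at most 57 counts in any library.

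Prom1 encodes a glycoprotein that spans the membrane several times and sits on membrane protrusions, and it marks stem cells and transit-amplifying cells near the crypt base. The gene (ENSMUSG00000029086) lies on the minus strand of chromosome 5, from 43993620 to 44102032 in GRCm38. Its level was 742.9, 694.8 and 711.4 CPM in the control libraries, against 1279.8, 1057.8 and 1048.9 CPM in the OE-labelled libraries. The lowest OE-labelled value was above the highest control value, and OE-labelled replicate 1 was the highest library. Prom1 rose 1.58-fold (95% interval 1.35 to 1.84; log2 fold change 0.66, SE 0.10; adjusted p = 0.000751 by edgeR). It kept this call in all 15 alternatives, with log2 fold changes from 0.50 without OE-labelled replicate 1 to 0.81 with an offset for GC content.

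Cd24a encodes a small, heavily glycosylated protein held in the membrane by a GPI anchor, found on crypt progenitors and also on secretory cells of the crypt. The gene (ENSMUSG00000047139) lies on the plus strand of chromosome 10, from 43578284 to 43584265. Its level was 274.7, 254.3 and 277.8 CPM in the control libraries, against 402.7, 431.0 and 484.9 CPM in the OE-labelled libraries. The groups did not overlap, and OE-labelled replicate 1, the highest for Prom1, was the lowest of its group for Cd24a. Cd24a rose 1.63-fold (95% interval 1.39 to 1.92; log2 fold change 0.71, SE 0.11; adjusted p = 0.000598 by edgeR). The call held in all 15 alternatives, with log2 fold changes from 0.64 to 0.78.

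Cd44, the receptor for the matrix polysaccharide hyaluronan and a target of WNT signalling in the crypt, was the most abundant member in control libraries. The gene (ENSMUSG00000005087) lies on the minus strand of chromosome 2, from 102811141 to 102901665. Its level was 968.8, 958.4 and 889.7 CPM in the control libraries, against 982.9, 1150.2 and 1150.0 CPM in the OE-labelled libraries. The groups did not overlap, but OE-labelled replicate 1 lay just above the highest control library. The log2 fold change of 0.22 (SE 0.10) did not pass (edgeR adjusted p = 0.108), and its 95% interval ran from 1.01 to 1.35-fold without adjustment for the number of genes. The estimate passed with the GC content offset (0.36, edgeR adjusted p = 0.0205), with that offset and the replicate block (0.36, edgeR adjusted p = 0.0312) and without OE-labelled replicate 1 (0.24, edgeR adjusted p = 0.0254). The change of Cd44 thus depended on the processing, while its direction did not.

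Tnfrsf19, a receptor of the TNF family that is restricted to stem cells at the crypt base, was near the detection floor. It had 5, 2 and 2 counts in the control libraries, against 5, 12 and 2 in the OE-labelled libraries. The groups overlapped, and OE-labelled replicate 2 alone held 12 of the 19 counts of its group. The ratio of the summed counts, 19 against 9, was 1.85 after scaling to library size, with an exact (Clopper-Pearson) counting interval from 0.799 to 4.65 at 95%, so no difference was detectable at this depth.

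The secreted markers of crypt base stem cells were scarce. Olfm4, an olfactomedin-domain glycoprotein, had 11, 10 and 9 counts in the control libraries, against 9, 12 and 25 in the OE-labelled libraries. These counts correspond to 4.64 ± 0.464 CPM and 6.31 ± 3.73 CPM (SD, n = 3). The groups overlapped, and the mean of the OE-labelled group was raised by replicate 3. The log2 fold change was 0.43 (SE 0.42; adjusted p = 0.468 by edgeR) over all libraries and -0.14 (edgeR adjusted p = 0.813) without OE-labelled replicate 3, so that library set the direction. The gene (ENSMUSG00000022026) lies on the plus strand of chromosome 14, from 79984081 to 80023139. Smoc2, a matricellular calcium-binding protein, had 0, 1 and 0 counts in control, against 0, 0 and 3 in OE-labelled libraries. All of these lay at or under the floor of 3 counts, and no fold change was computed.

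Sox4, a transcription factor with an HMG box expressed in crypt progenitors, was abundant and did not pass. The gene (ENSMUSG00000076431) lies on the minus strand of chromosome 13, from 28948919 to 28953713. Its level was 755.8, 768.9 and 821.0 CPM in the control libraries, against 685.1, 826.6 and 752.6 CPM in the OE-labelled libraries. The groups overlapped, with OE-labelled libraries both below and above all control libraries. The log2 fold change was -0.05 (SE 0.10; adjusted p = 0.736 by edgeR), and the 95% interval of the ratio, 0.831 to 1.12, does not reach the estimates of Prom1 and Cd24a. The annotated gene Gm26735 overlaps Sox4 exons on the opposite strand, as Gm16401 does for Prom1 and Hopxos for Hopx. The strand setting of the counting is not given. Gm6999 overlaps Olfm4 exons on the same strand. Gm16401 had 1 count, in OE-labelled replicate 3, and Hopxos and Gm6999 had 0 in all libraries. Gm26735 was not among the counted genes. It matches 163 aligned bases within the last 300 of Sox4 transcripts at 100% identity, the end that 3′ tags read. The effect of this overlap on the Sox4 count was not tested.

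Bmi1, a RING-finger subunit of Polycomb repressive complex 1 used as a marker of slowly cycling crypt cells, was the only member below the abundant 4 with a control mean above 20 CPM. It had 40, 51 and 57 counts in the control libraries, against 50, 44 and 38 in the OE-labelled libraries, or 22.9 ± 4.02 and 17.9 ± 2.15 CPM (SD, n = 3). The groups overlapped through control replicate 1, the lowest control library. The log2 fold change of -0.35 (SE 0.21) did not pass (edgeR adjusted p = 0.214), and it was -0.06 (edgeR adjusted p = 0.870) with the GC content offset. The gene (ENSMUSG00000026739) lies on the plus strand of chromosome 2, from 18677018 to 18686629. Bmi1 transcripts had the lowest GC content of the 10 members, 40.4%. Within their last 300 bases, Bmi1 transcripts align to 2 other annotated loci, so the counts of Bmi1 are uncertain. Identity was 95.7% over 302 aligned bases for Gm5946 and 98.3% over 176 for AC114652.1. Gm5946 had 0 counts in all libraries, and AC114652.1 was not among the counted genes.

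Hopx, a small homeodomain protein that does not bind DNA and a marker of reserve stem cells, had 15, 18 and 17 counts in the control libraries, against 11, 29 and 42 in the OE-labelled libraries. The OE-labelled libraries lay on both sides of the control libraries, which spread little. The log2 fold change was 0.53 (SE 0.40; adjusted p = 0.343 by edgeR). It was 0.05 (edgeR adjusted p = 0.936) without OE-labelled replicate 3 and 0.85, past the threshold (edgeR adjusted p = 0.0299), without OE-labelled replicate 1. The gene (ENSMUSG00000059325) lies on the minus strand of chromosome 5, from 77086988 to 77115121. The value for Hopx was thus set by single libraries. Msi1, the Musashi protein that represses translation of Numb, had 0 counts in all control libraries and 0, 0 and 2 counts in OE-labelled libraries. A count of 0 in these libraries allows a level of up to 1.18 to 1.41 CPM.

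**Figure D2:**
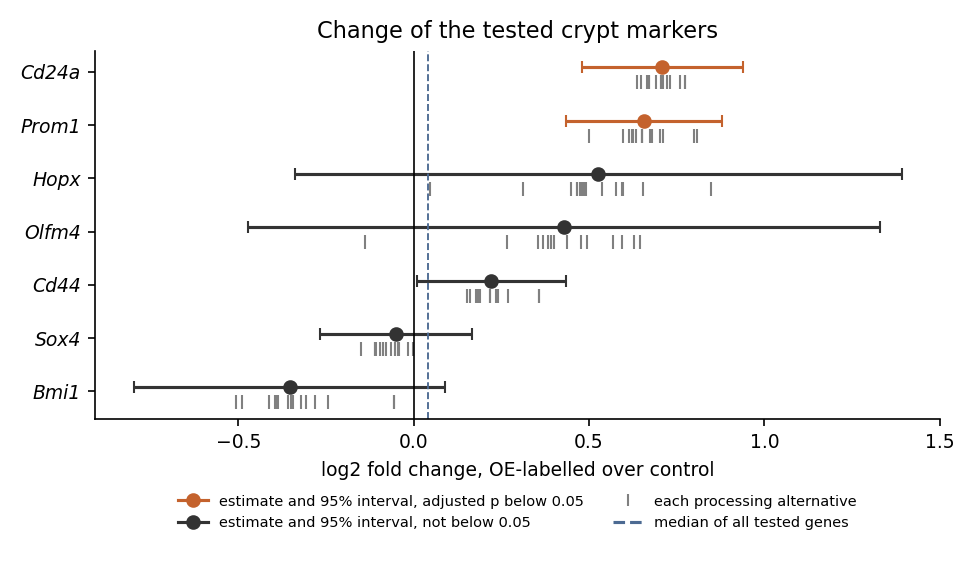
Log2 fold change of the 7 tested markers, OE-labelled over control, with 95% intervals (points), the value under each of 15 alternatives (ticks) and the median of all tested genes (dashed, 0.04). The intervals of Cd24a and Prom1 lie above 0.43, while the ticks of Olfm4 run from -0.14 to 0.64 and those of Hopx from 0.05 to 0.85.

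The order of the members by level differed between the groups at its top. A 3′ count does not scale with transcript length, so CPM of different genes were set side by side as an order of counts. Other differences in how well each gene is counted were not corrected for. In control libraries the order was Cd44 (939.0 CPM), Sox4 (781.9 CPM), Prom1 (716.4 CPM), Cd24a (268.9 CPM), Bmi1 (22.9 CPM), Hopx (7.73 CPM), Olfm4 (4.64 CPM) and Tnfrsf19 (1.39 CPM). The control ranges of neighbours in this order did not overlap, the closest being Sox4 and Prom1. In OE-labelled libraries Prom1 (1128.8 CPM) and Cd44 (1094.3 CPM) overlapped, followed by Sox4 (754.7 CPM) and Cd24a (439.5 CPM), which overlapped no neighbour. Bmi1 (17.9 CPM) overlapped Hopx (11.2 CPM), which overlapped Olfm4 (6.31 CPM), and Olfm4 overlapped Tnfrsf19 (2.53 CPM). The 4 abundant members held 98.6% to 99.1% of the members' counts in every library. The 10 members together took 0.265% to 0.270% of all counts in control and 0.337% to 0.357% in OE-labelled libraries. In these bulk libraries, more cells of a type and more RNA per cell cannot be told apart.

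Ratios of counts within a library do not depend on how libraries are scaled. Prom1 was counted 0.983, 0.904 and 0.866 times as often as Sox4 in the control libraries and 1.87, 1.28 and 1.39 times as often in the OE-labelled libraries. Sox4 was thus ahead of Prom1 in all 3 control libraries and behind it in all 3 OE-labelled libraries. Prom1 reached 0.725 to 0.800 of the Cd44 count in control libraries and 0.912 to 1.30 of it in OE-labelled libraries. Cd24a reached 0.265 to 0.312 of the Cd44 count in control and 0.375 to 0.422 in OE-labelled libraries. Cd44 over Sox4 also did not overlap, at 1.08 to 1.28 and 1.39 to 1.53. The ratio of Cd24a to Prom1, the 2 members that rose, did overlap, at 0.366 to 0.391 and 0.315 to 0.462.

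**Figure D3:**
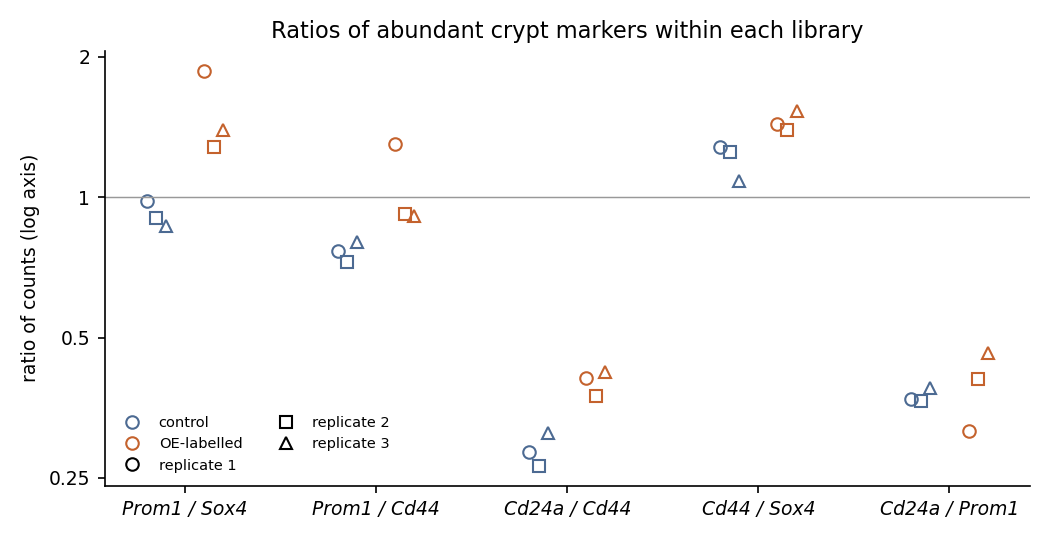
Ratio of the counts of pairs of abundant markers in each library (log axis; blue, control; orange, OE-labelled; symbols, replicates). Prom1 over Sox4 lies below 1 in the 3 control libraries and above 1 in the 3 OE-labelled libraries, and Cd24a over Prom1 overlaps between the groups.

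The members varied little between control libraries and more between OE-labelled libraries. The coefficient of variation of the 4 abundant members was 3.41% to 4.75% in control, where counting alone gives 2.22% to 4.15%. In OE-labelled libraries it was 8.82% to 11.6%, where counting alone gives 1.90% to 3.04%. In control, Hopx varied by 9.97%, where counting alone gives 24.5%, and Olfm4 too lay below its counting error of 31.6%. They varied by 59.4% and 59.0% in OE-labelled libraries, against 19.1% and 25.5% from counting. Bmi1 stayed near its counting error in both groups, at 17.6% and 12.0%. OE-labelled replicate 1 was the highest of its group for Prom1 and Bmi1 and the lowest for Cd44, Cd24a, Sox4, Hopx and Olfm4, and replicate 3 was the highest for Cd24a, Hopx and Olfm4. The markers therefore did not all follow the same order across the OE-labelled libraries, although most were lowest in replicate 1. Between 3 libraries a coefficient of variation is itself imprecise, and the difference in spread was not tested.

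**Figure D4:**
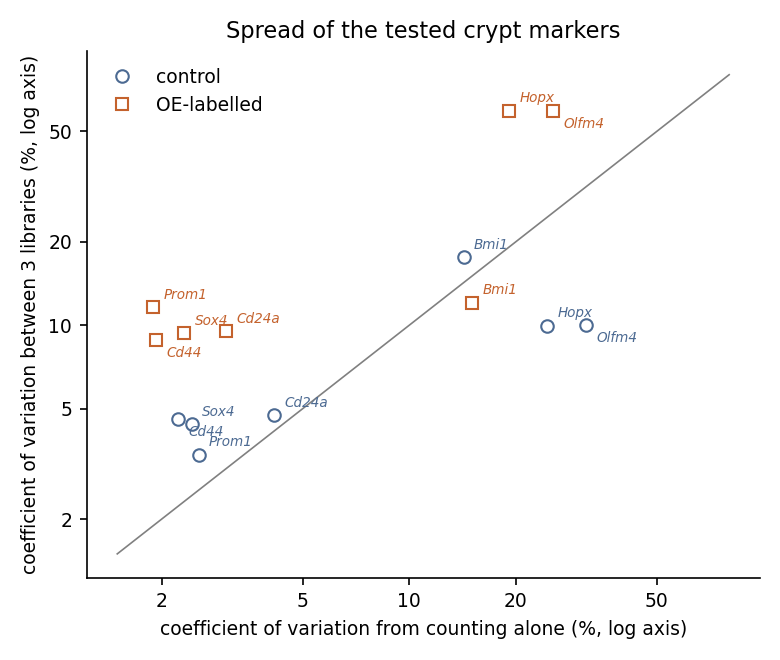
Coefficient of variation between 3 libraries against that from counting alone, for the 7 tested markers in each group (both axes log; line, equality). The 4 abundant markers lie at 3.41% to 4.75% in control (circles) and at 8.82% to 11.6% in OE-labelled libraries (squares).

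Genes with a profile most like that of Cd24a, the member with the smallest p, were sought among 9246 genes by the root-mean-square distance of log2 CPM over the 6 libraries, each gene centred on its own mean. The nearest were Ctsb, the lysosomal protease cathepsin B (distance 0.029), S100a10, an annexin partner (0.038), and Atox1, a copper chaperone (0.049). Their log2 fold changes were 0.69, 0.74 and 0.65, beside 0.71 for Cd24a. This closeness follows from the way the genes were chosen and is not a separate result. Prom1 lay farther away, at 0.168, and ranked 466 by closeness among the compared genes. As no member fell, no profile was sought for a lower member.

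Of 18 other crypt and WNT-responsive genes, 15 were tested, 3 rose and 0 fell, and the median log2 fold change was 0.11. Over all tested genes 16.5% were higher and 12.7% lower, and the counts in this list and the 4 lists that follow are read as descriptions beside those shares. Alcam, an adhesion molecule named after its values were seen, did not pass over all libraries (log2 fold change -0.22, SE 0.10, edgeR adjusted p = 0.110). All of its OE-labelled libraries lay below all control libraries, as in 20.5% of all tested genes. Alcam passed as lower without OE-labelled replicate 1 (-0.31, edgeR adjusted p = 0.0115) and without mitochondrial and ribosomal RNA genes (-0.28, edgeR adjusted p = 0.0486). Sox9, a transcription factor of crypt progenitors and Paneth cells, rose from 343.3 ± 9.28 to 513.6 ± 71.3 CPM (SD, n = 3; log2 fold change 0.58, SE 0.11; adjusted p = 0.00277 by edgeR). Ephb3, a receptor that positions cells along the crypt, rose by 0.73 (log2; SE 0.18; adjusted p = 0.00852 by edgeR). Its adjusted p was 0.0556 without control replicate 3 and 0.0528 without OE-labelled replicate 2. Ascl2, a master regulator of crypt base stem cells, had 10, 1 and 12 counts in control, against 33, 26 and 17 in OE-labelled libraries (log2 fold change 1.52, SE 0.47; adjusted p = 0.0292 by edgeR). The call of Ascl2 was lost in 7 of 15 alternatives, among them DESeq2 (adjusted p = 0.0540) and the fits without control replicate 1 (0.0650), control replicate 2 (0.0891), OE-labelled replicate 1 (0.0521) or OE-labelled replicate 2 (0.0840). Without OE-labelled replicate 2, 1 gene of this list passed. Lgr5, the receptor that defines crypt base stem cells, was low at 8.35 ± 1.29 and 10.1 ± 1.92 CPM (SD, n = 3) and did not pass (log2 fold change 0.27, SE 0.27, edgeR adjusted p = 0.483). Like Olfm4, Smoc2 and Tnfrsf19, it stood far below Cd44, Prom1 and Sox4 in every library.

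Among the nearest paralogues of the members, 6 of 11 were tested, 0 rose and 1 fell, with a median log2 fold change of 0.17. This was Msi2, the other Musashi protein, at 225.8, 239.7 and 226.7 CPM in control, against 155.6, 136.5 and 120.9 CPM in OE-labelled libraries. The groups did not overlap, and Msi2 fell by 0.74 (log2; SE 0.12; adjusted p = 0.00072 by edgeR), a call kept in all 15 alternatives. While Msi1 was at or under the floor, Msi2 was thus the Musashi transcript measured in these organoids. Prom2, the paralogue of Prom1, was low at 5.10 ± 1.38 and 8.86 ± 2.21 CPM (SD, n = 3). It did not pass (log2 fold change 0.79, SE 0.32, edgeR adjusted p = 0.0847), although its groups did not overlap. Of the 6 tested paralogues, 2 were separated upward and 1 downward, beside 25.3% and 20.5% of all tested genes. Of the Notch and Numb list 9 of 10 were tested, 0 rose and 3 fell, with a median of -0.39. Numb, an inhibitor of Notch whose mRNA Musashi proteins bind, had 29, 20 and 17 counts in control, against 8, 2 and 6 in OE-labelled libraries (log2 fold change -2.20, SE 0.42, edgeR adjusted p = 0.00232). Jag1, a Notch ligand, fell by 1.08 (log2; SE 0.15; adjusted p = 0.000343 by edgeR). Rbpj, the DNA-binding partner of Notch, fell by 0.48 (SE 0.16, edgeR adjusted p = 0.0390), a call lost in 9 of 15 alternatives: without each control library in turn, without OE-labelled replicate 2 or 3, with library totals, with DESeq2 and with the GC content offset with or without the block (adjusted p up to 0.326). Hes1, a Notch target, did not pass (-0.15, SE 0.16, edgeR adjusted p = 0.521).

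The list of CD44 ligands and cytoskeletal partners had 7 of 10 genes tested, 1 higher and 2 lower, with a median of -0.17. Ezr and Msn encode ezrin and moesin, which link CD44 to actin, and they moved in opposite directions. Ezr rose from 582.0 ± 27.0 to 820.7 ± 92.2 CPM (SD, n = 3; log2 fold change 0.50, SE 0.10, edgeR adjusted p = 0.00418), a call missed with the replicate block and GC offset (adjusted p = 0.0531). Msn fell from 192.9 ± 16.8 to 92.1 ± 1.57 CPM (SD, n = 3; log2 fold change -1.07, SE 0.11, edgeR adjusted p = 8.82e-05). Nf2, which encodes merlin, fell by 0.58 (log2; SE 0.15; adjusted p = 0.0138 by edgeR), with adjusted p of 0.0718 without control replicate 1 and 0.0684 without control replicate 2. The hyaluronan synthases Has1, Has2 and Has3 had 0 counts in all libraries, which allows up to 1.41 CPM each.

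The list of Polycomb repressive complex 1 subunits, with the Bmi1 target Cdkn2a, had 14 of 15 genes tested, 3 higher and 3 lower, and a median of 0.04. Cbx6, a chromobox subunit, rose from 367.8 ± 24.3 to 836.9 ± 117 CPM (SD, n = 3; log2 fold change 1.19, SE 0.12, edgeR adjusted p = 5.94e-05). Cbx6 shares exons with another annotated gene on its strand, so its count is uncertain. Pcgf6 and Pcgf5, alternatives to Bmi1 in the complex, fell by 1.27 (SE 0.17, edgeR adjusted p = 0.000315) and by 1.01 (SE 0.18, edgeR adjusted p = 0.00163) on the log2 scale. Cbx7 (0.57, adjusted p = 0.0233) and Phc3 (-0.41, adjusted p = 0.0336) also passed in the edgeR fit. Each call was lost in 7 of 15 alternatives: for both, without control replicate 1, 2 or 3 in turn, with DESeq2 and with the GC content offset, among others (adjusted p 0.0580 to 0.191). Leaving out OE-labelled replicate 2 also ended the call of Cbx7. On the opposite strand, annotated exons overlap Cbx7, Pcgf5, Ezr, Msn and Numb, and without the strand setting such reads cannot be told apart. Cdkn2a, whose locus Bmi1 represses, was at 309.0 ± 13.3 and 376.9 ± 33.8 CPM (SD, n = 3) and did not pass (0.29, SE 0.10, edgeR adjusted p = 0.0557).

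**Figure D5:**
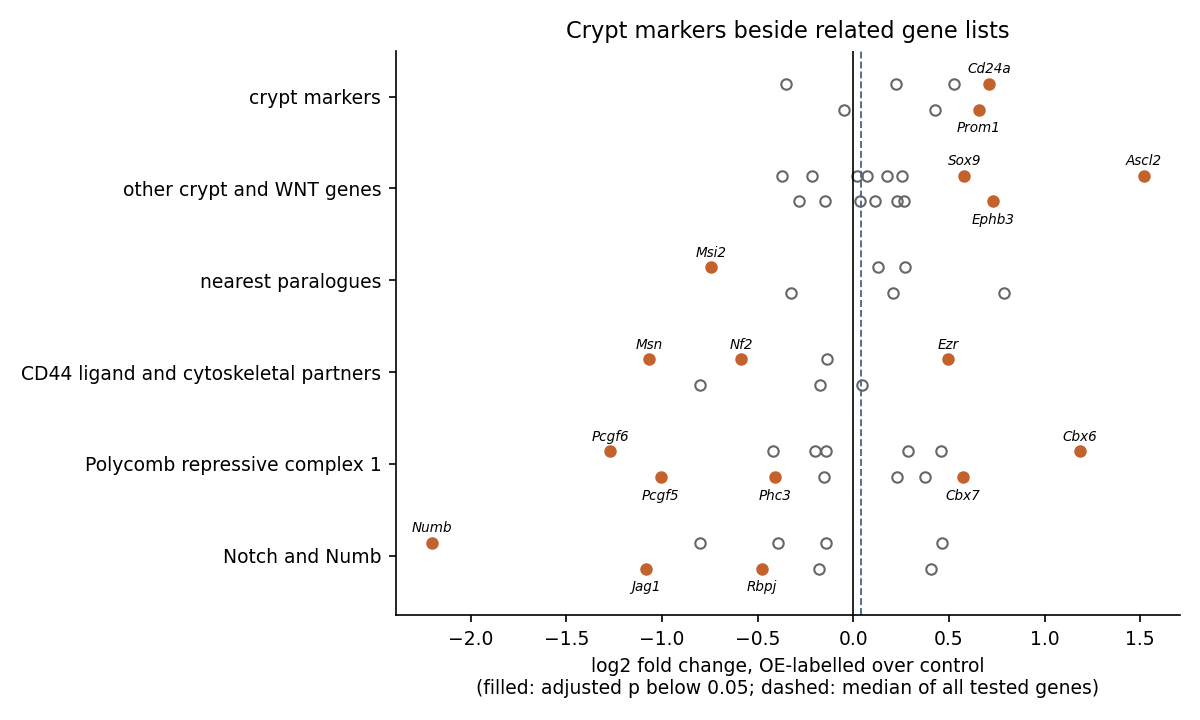
Log2 fold change of the tested genes, OE-labelled over control, for the crypt markers and 5 related lists, less 1 Polycomb gene not reported here (filled, adjusted p below 0.05; dashed line, median of all tested genes). Filled points stand on the right only for the crypt markers and the other crypt and WNT genes, on the left only for the paralogues and the Notch list, and on both sides for the CD44 and Polycomb lists.

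Markers of other cell types differed beside Prom1 and Cd24a. The counts below stand beside 16.5% higher among all tested genes and 32.6% among those of at least 200 CPM, a mean level that, of the genes that rose, Krt8, Krt18, Krt19 and Spink4 reached. Of 7 epithelial genes, 4 rose (Krt8, Krt18, Krt19 and Vil1). Epcam (log2 fold change 0.075, edgeR adjusted p = 0.586), Cdh1 (-0.12, edgeR adjusted p = 0.528) and Cdx2 (0.37, edgeR adjusted p = 0.383) did not pass. The summed level of all 7 was 3948 to 4172 CPM in control and 5325 to 6025 CPM in OE-labelled libraries. The sums that follow likewise cover all genes of a list. Of 7 goblet cell genes 5 were tested and 3 rose (Spink4, Tff3 and Fcgbp), with sums of 589.7 to 614.1 and 1273 to 1488 CPM, while Muc2, the main goblet cell mucin, was at 4.03 ± 2.13 and 4.74 ± 0.108 CPM (SD, n = 3). Of 6 tuft cell genes 2 were tested and 1 rose (Avil), with sums of 143.7 to 157.2 and 183.6 to 219.9 CPM. Of 6 Paneth cell genes 4 were at 0 in all libraries (Lyz1, Ang4, Defa24 and Defa17), 1 was tested and rose (Mmp7), and the sums were 31.3 to 34.6 and 57.9 to 86.5 CPM. Of 10 enterocyte genes 6 were at 0 (Alpi, Fabp1, Apoa1, Apoa4, Sis and Krt20), 1 was tested and fell (Apob), and the sums were 5.99 to 7.37 and 1.18 to 2.11 CPM. Enteroendocrine genes summed to at most 0.469 CPM. The part of these cell types in the levels of Prom1 and Cd24a was not tested.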

How the data were processed

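Total RNA was made into 3′ mRNA libraries with a QuantSeq forward kit, per the labels' protocols. The deposited values are estimated counts per gene, not normalized. STAR, HTSeq and the builds mm10 and GRCm38 are named in the submitters' processing notes; the annotation release, strand setting and treatment of molecular identifiers are not given in the sources used here. Of values above 0, 3.09% were fractional (0 among the members), and counts were rounded. Groups came from sample titles, columns from library names.

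All 6 libraries were compared without covariates by the quasi-likelihood test of edgeR 4.0.16 (R 4.3.3) after filterByExpr and TMM scaling, with Benjamini-Hochberg adjustment over 10687 genes. A standard error is the estimate over the square root of F. The fit was also run on simulated data in which all genes of a group had the same spread beyond counting. That setting is simpler than these data, so the run does not vouch for the calls given here. Positions, overlaps and GC content came from GENCODE M21, which held 99.5% of the gene identifiers. The 15 alternatives were DESeq2 size factors, library totals, no count filter, DESeq2 1.42.0, limma-voom (limma 3.58.1) with a variance per group, the replicate block, a GC content offset (loess, span 0.5), both together, no mitochondrial or ribosomal RNA genes, and each library left out. The members and lists were chosen with earlier results of these data known. The named genes were the members, Igf2bp3, Apc, the 3 nearest profiles, and genes from the lists. From each list came up to 3 genes per direction, with the smallest p among those past 0.05. Lgr5, Hes1, Cdkn2a, Prom2, the hyaluronan synthases and cell type markers were named after their values were seen. The result of 1 gene is not reported here.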

Additional observations from a re-analysis of the deposited data

How the results depend on the processing

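Prom1 and Cd24a passed in all 15 alternatives and Sox4 and Bmi1 in none. Cd44 passed at 0.36 with the GC content offset and at 0.36 with the block and that offset; leaving out single libraries gave 0.15 to 0.24. Without single libraries, Hopx ran from 0.048 to 0.85 and Olfm4 from -0.14 to 0.64. Without single libraries, 2 to 4 members passed, and 3 did with the GC offset and with the block and GC offset. The count of other crypt and WNT genes then ran from 1 to 3, and that of paralogues and partners, 13 over all libraries, from 8 to 15; the last was 8 with the block and GC offset. Of all genes, 1972 passed with DESeq2 and 1748 to 3532 without single libraries, against 3118. With the replicate block 2 members and 3112 genes passed, 2958 shared. Equally numbered libraries deviated together at r = 0.097, 0.018 and 0.069 across genes. Control replicates 1 and 3 correlated best with the OE-labelled library of their own number, and control replicate 2 with OE-labelled replicate 3 (0.042). Control libraries differed by little more than counting noise (1.2 to 1.38 times its variance), so these correlations cannot decide whether libraries were paired. No alternative gave Tnfrsf19, Smoc2 or Msi1 a comparison with the fit over all libraries, since they were not tested in it. For 16 passing genes of the related lists, 195 of 240 values had the same direction and call, 45 missed the threshold and 0 changed sign. The causes were not tested. Depth limits the members below 60 counts.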
